A study of Arabidopsis with 24 samples.

Results

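The low R:FR response of wild-type Arabidopsis thaliana, accession Col-0, was taken as the difference between 3 libraries of seedlings exposed to low R:FR and 3 libraries of seedlings kept in white light (WL). The members were the genes with a mean FPKM (fragments counted per length of transcript and size of library) of at least 1 over these 6 libraries. This rule kept 19245 of the 32833 genes in the table. All seedlings were grown in WL for 6 days. One set then stayed in WL, and the other was placed for 6 h under light with a ratio of red to far-red of 0.3. RNA came from whole seedlings, so roots, hypocotyls and cotyledons shared a library, and fewer cells of a type and less RNA per cell cannot be told apart. The series also held 3 mutant genotypes under the same light treatments, each with 3 libraries per light, which made 24 libraries in all. These were dvl1-1D, a single activation-tagged line that overexpresses RTFL18, the double mutant bsk36, which lacks BSK3 and BSK6, and the double mutant pif47, which lacks PIF4 and PIF7. They entered the fit of the spread and a comparison of 24 genes at the end. Whether the 3 libraries of a group came from separate cultures is not given in the labels, so the p-values measure the spread between these samples, which may be in part technical.

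Plants read the proximity of neighbours from light, because leaves absorb red light and reflect far-red light. A low ratio of red to far-red converts phytochrome B to its inactive form, which releases the phytochrome-interacting factors (PIFs), bHLH transcription factors that activate auxin synthesis genes and growth genes. The resulting shade avoidance syndrome includes elongation of hypocotyls and petioles, and it is restrained by negative regulators such as HFR1 that are themselves induced by low R:FR.

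The libraries were of similar size as far as FPKM can show. The FPKM of the Col-0 libraries summed to between 777131 and 801109. Read numbers cannot be had from FPKM, so depth is unknown in absolute terms and no counting interval is given. The spacing of low values gave relative depths of 0.903 to 0.986 in WL and 0.805 to 1.24 in low R:FR. In a principal component analysis of the 6 libraries, the first component held 42.5% of the variance and separated both light conditions. The second held 18.9% and set replicate 1 of each light (23.55 in WL, 44.9 in low R:FR) apart from replicates 2 and 3. Those stood at -6.22 and -16.1 in WL and at -25 and -21.1 in low R:FR. Replicate 3 of low R:FR carried a smaller repression than the others. The median log2 difference from the WL mean over the repressed genes was -1.51, -1.50 and -1.05 in replicates 1, 2 and 3, and replicate 3 was the least changed in 73.1% of these genes (182), against 48.0% of the induced genes (202). Without replicate 3, the number of repressed genes was 334 in place of 249.

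Low R:FR moved many genes a little and few genes a lot. A gene was called induced or repressed where limma on log2(FPKM + 0.1) gave a Benjamini-Hochberg adjusted p under 0.05 and a change of at least 2-fold, and it was said to have risen or fallen where the adjusted p alone passed. All fold changes are low R:FR against WL on this log2 scale. The added 0.1 can understate the change of genes with low FPKM, and libraries listed at 0 can lead to an overstated one. For AT5G23411, with such libraries in WL, the fitted log2 fold change was 6.32, whereas its mean FPKM rose 9.9-fold. A single value in brackets after a gene is its log2 fold change, and a pair of FPKM values joined by "to" gives its means under WL and low R:FR. Of the 19245 genes, 421 (2.19%) were induced and 249 (1.29%) were repressed, 3.48% together. At any size, 4345 genes (22.6%) rose and 3211 (16.7%) fell, 39.3% together, and the median log2 fold change of all tested genes was 0.06. The FPKM of the 3 low R:FR and 3 WL libraries did not overlap for 413 of the induced and 239 of the repressed genes, beside 44.8% of all tested genes. Fold changes of at least 4 were seen for 91 induced and 40 repressed genes, and of at least 16 for 20 and 5. Of the induced genes, 82 had a mean below 1 FPKM in WL, and 58 of the repressed genes had one below 1 FPKM in low R:FR.

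**Figure D1:**
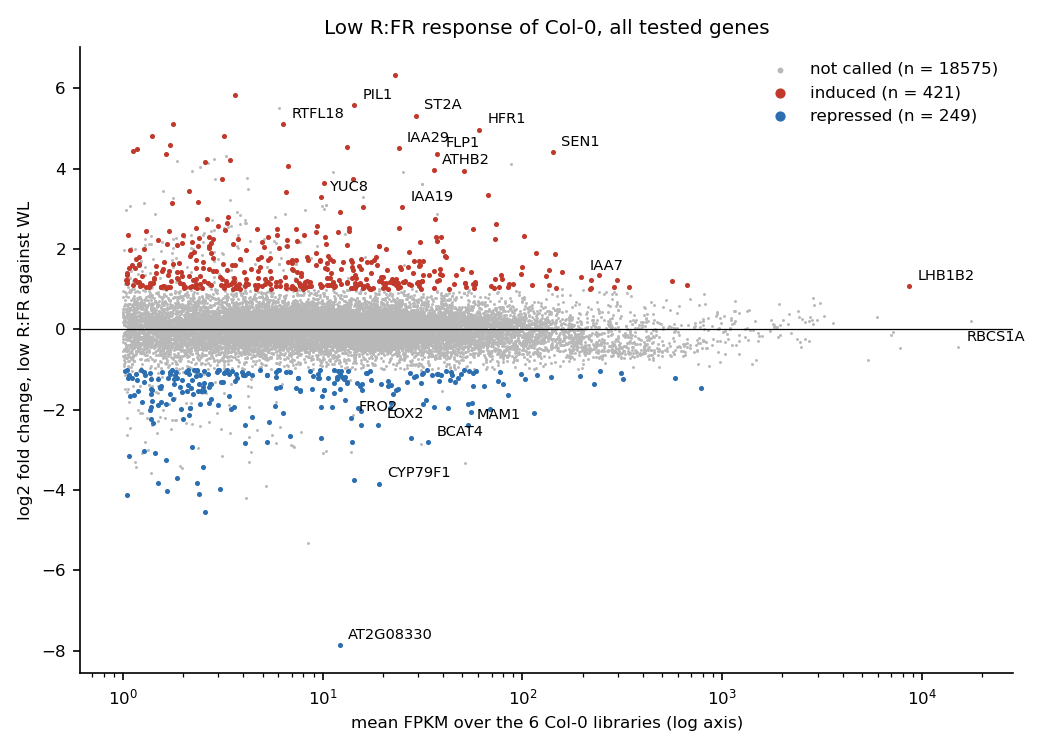
Log2 fold change of the 19245 tested genes (y axis, low R:FR against WL, on log2(FPKM + 0.1)) against their mean FPKM over the 6 Col-0 libraries (x axis, log axis), with the 421 induced genes in red, the 249 repressed genes in blue and genes that were not called in grey. PIL1, ST2A and HFR1 stand at the top at moderate levels, CYP79F1 and BCAT4 at the bottom, and LHB1B2 is the induced gene furthest to the right.

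The genes with the largest rise were led by known shade markers. PIL1 (AT2G46970), a bHLH gene of early shade signaling, had 0.4, 0.66 and 0.44 FPKM under WL and 28.1, 27.9 and 28.7 FPKM under low R:FR, a log2 fold change of 5.59 (SE 0.16, limma adjusted p = 2.56e-15). HFR1 (AT1G02340), an atypical bHLH protein that binds PIFs and keeps them from DNA, went from 3.06, 4.68 and 3.38 FPKM to 129, 111 and 115 FPKM (4.98, SE 0.15, adjusted p = 5.89e-15). ATHB2 (AT4G16780), an HD-Zip II transcription factor gene long used as a shade marker, went from 3.51, 4.39 and 4.85 FPKM to 68.3, 64.8 and 69.5 FPKM (3.97, SE 0.12, adjusted p = 3.90e-15). For these regulators the low R:FR libraries lay close together and far above all WL libraries. IAA29 (AT4G32280), an Aux/IAA repressor of auxin signaling, was at 1.88, 2.61 and 1.42 FPKM under WL and 50.1, 42.9 and 45.3 FPKM under low R:FR (4.52, SE 0.21, adjusted p = 3.28e-12). ST2A (AT5G07010), a sulfotransferase that acts on hydroxylated jasmonate, was at 0.95, 1.81 and 1.33 FPKM and rose to 58.6, 60.4 and 51.9 FPKM (5.33, SE 0.17, adjusted p = 7.52e-15). FLP1 (AT4G31380), an FPF1-like protein gene, was at 3.47, 3.8 and 2.77 FPKM under WL and 77.5, 69.9 and 66.2 FPKM under low R:FR (4.38, SE 0.20, adjusted p = 3.44e-12). None of the low R:FR values of these genes came near a WL value.

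SEN1 (AT4G35770), a gene known for its induction in darkness and senescence, was the most abundant in low R:FR of the 12 genes with the largest rise. It was listed at 10.2, 11.8 and 13.1 FPKM under WL and 347, 332 and 137 FPKM under low R:FR (4.42, SE 0.40, adjusted p = 4.04e-08). Its level in replicate 3 of low R:FR was well under that in the other replicates, though far above WL. RTFL18 (AT5G16023), which encodes a small ROTUNDIFOLIA-like peptide also named DVL1, was at 0.46, 0.7 and 0 FPKM under WL and 12.9, 12.8 and 11.1 FPKM under low R:FR (5.12, SE 0.53, adjusted p = 2.65e-07). As RTFL18 is listed at 0 in a WL library, the size of its change depends on the added 0.1. AT5G02540, for which the tables used give no name, went from 5.37, 6.19 and 6.87 FPKM to 104, 102 and 80.7 FPKM (3.94, SE 0.14, adjusted p = 4.81e-14). AT5G23411 had the largest fitted rise and uneven values, with 0, 0 and 12.7 FPKM in WL and 27.1, 55.0 and 44.0 FPKM in low R:FR (adjusted p = 0.0126). A single Col-0 WL library held all of its WL signal, and its call was lost without WL replicate 1 (adjusted p = 0.074) or WL replicate 2 (adjusted p = 0.064). Its response passed in no mutant, with log2 fold changes of 3.85, -0.34 and 2.32 in dvl1-1D, bsk36 and pif47. In bsk36 its WL values were 30.45, 20.74 and 25.82 FPKM. The remaining genes of the 12 were SAUR22 and SAUR19, described with their family.

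**Figure D2:**
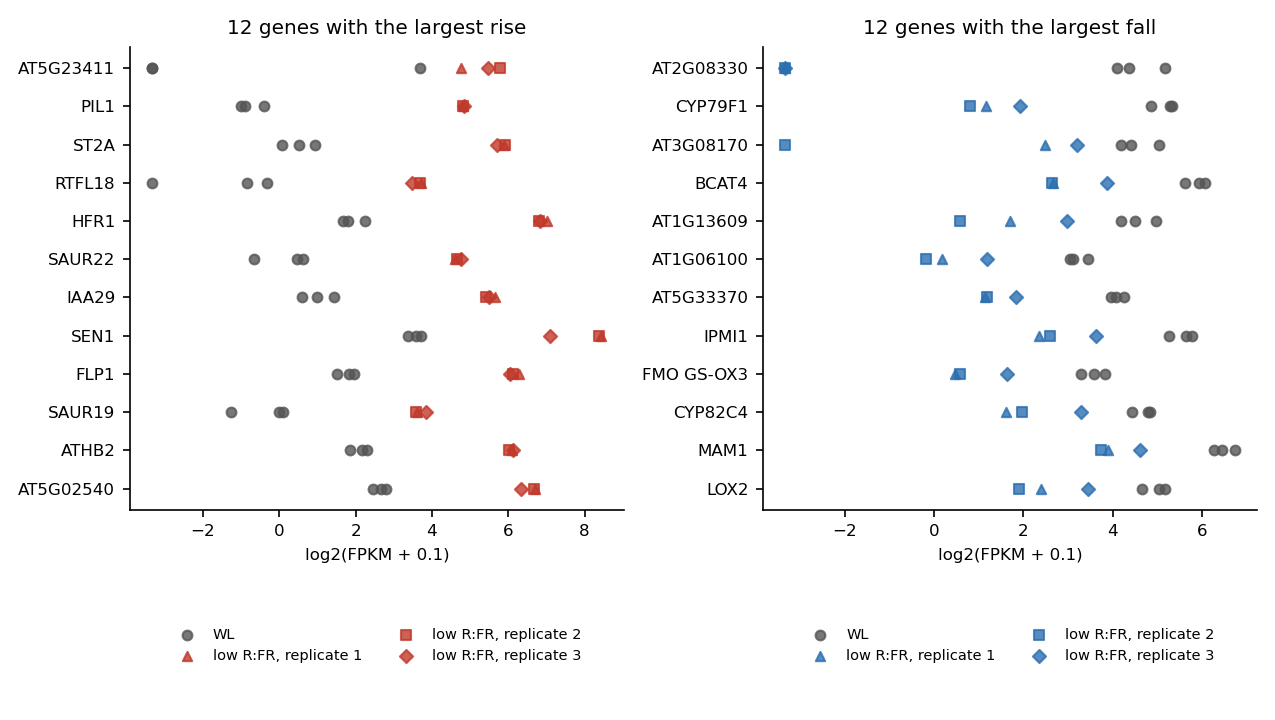
FPKM of the 12 genes with the largest rise (left) and the 12 with the largest fall (right) in each Col-0 library, as log2(FPKM + 0.1) on the x axis, with WL libraries as grey circles and low R:FR replicates 1, 2 and 3 as triangles, squares and diamonds; values of 0 sit at the left edge. The conditions do not overlap for any of the 24 genes, by the rule that chose them, and among the falls the diamonds of replicate 3 mostly lie nearest to WL.

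Most regulators of light signaling rose. Of 33 genes of phytochrome and shade signaling, all of them tested, 25 rose, 8 did not pass and 0 fell, with 16 induced and a median log2 fold change of 0.87. Beyond the markers above, FHL, which carries phytochrome A into the nucleus with FHY1, went from 0.463 ± 0.36 to 4.30 ± 1.246 FPKM (mean ± SD, n = 3, log2 fold change 3.18, limma adjusted p = 1.80e-06). The photoreceptor genes PHYA and PHYB were both induced. PHYA was at 26.4, 26.0 and 26.0 FPKM under WL and 66.2, 72.0 and 61.6 FPKM under low R:FR (1.34, limma adjusted p = 1.33e-10), and PHYB at 21.0, 23.1 and 22.2 FPKM and 57.1, 58.5 and 54.3 FPKM (1.35, limma adjusted p = 3.90e-13). PHYE rose less (0.69), and PHYC (0.08) and PHYD (-0.08) did not pass. The PIF genes also differed among themselves. PIF4 rose from 7.12 ± 0.398 to 24.1 ± 2.20 FPKM (1.75), PIF5 (1.20) and PIF3 (1.08) were induced, and PIF1 (0.16) and PIF7 (0.07) did not pass. PIF1 passed without WL replicate 2 (0.29, limma adjusted p = 0.0207). Induced negative regulators included PAR1 (1.70) and PAR2 (1.52), small HLH proteins that inhibit PIFs. The genes BBX28 (1.61) and BBX24 (1.02), of B-box proteins that interfere with HY5, were induced too. HY5, the bZIP factor that opposes PIFs in light, rose by less than 2-fold, from 13.5 ± 1.57 to 24.8 ± 2.36 FPKM (0.87). COP1 and SPA1, parts of an E3 ubiquitin ligase that removes light regulators, rose by 0.19 and 0.26 on the log2 scale, and COP1 lost its call under 6 of the alternatives tried, among them median ratio scaling and the fits without low R:FR replicate 1, low R:FR replicate 2 or WL replicate 1.

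Growth-promoting bHLH genes rose together with one of their inhibitors. Of 10 listed, 8 were tested, 6 rose and 0 fell, with 5 induced and a median of 1.07. BEE1, a brassinosteroid-responsive bHLH gene, was at 3.38, 4.44 and 4.59 FPKM under WL and 25.4, 23.7 and 19.9 FPKM under low R:FR (2.45, limma adjusted p = 3.92e-09). BEE3 (1.15), KDR (1.09) and PRE1 (1.04) were induced too, and so was IBH1 (1.12), which inhibits the growth-promoting HBI1. PRE1 did not pass without WL replicate 3 (0.68, adjusted p = 0.0646) or with the 6 Col-0 libraries alone in the fit (adjusted p = 0.0556). HBI1 itself stood at 53.8 ± 6.08 FPKM under WL and 55.8 ± 4.49 FPKM under low R:FR and did not pass (adjusted p = 0.755).

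Auxin genes moved at each step of the pathway, and not in a single direction. Among the enzymes of auxin synthesis, 8 of 10 were tested, 3 rose (37.5%) and 3 fell (37.5%), and the median was 0.11. Of all tested genes, 22.6% rose and 16.7% fell. The flavin monooxygenase gene YUC8 was listed at 1.59, 2.16 and 1.46 FPKM under WL and 18.6, 19.5 and 15.4 FPKM under low R:FR (3.298, SE 0.18, limma adjusted p = 5.65e-11). YUC2 (1.62 to 6.63 FPKM, 1.98) and YUC9 (1.49 to 4.83 FPKM, 1.63) were induced as well. TAA1, the aminotransferase that makes the YUC substrate, fell from 11.5 ± 1.31 to 7.19 ± 0.249 FPKM (-0.66, limma adjusted p = 4.99e-05), as did YUC4 (-1.15) and YUC6 (-0.47), the latter not without low R:FR replicate 1. GH3 enzymes, which conjugate auxin to amino acids, rose in 4 of 5 tested cases, led by GH3.5 (19.2 to 52.7 FPKM, 1.45). Of 12 transport genes, 5 rose (41.7%) and 2 fell (16.7%), beside 22.6% and 16.7% of all tested genes. The share that fell was that of all tested genes, and none of the 12 reached a 2-fold change. The efflux carrier genes PIN3 (0.82), PIN7 (0.67) and ABCB19 (0.71) and the influx carrier gene AUX1 (0.65) were higher, while LAX3 (-0.46), also an influx carrier gene, was lower. Without low R:FR replicate 1, LAX3 did not pass and 0 transport genes fell.

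Many early auxin response genes rose. Of 22 tested Aux/IAA genes of 25 listed, 14 rose, 1 fell and 7 were induced, with a median of 0.58. IAA19, which is tied to hypocotyl growth, was at 5.31, 5.66 and 5.06 FPKM under WL and 42.4, 46.1 and 45.2 FPKM under low R:FR (3.04, limma adjusted p = 3.90e-13). IAA6 was induced at a lower level (0.453 to 5.80 FPKM, 3.75), and IAA2 (49.7 to 185 FPKM, 1.90) and IAA7 (113 to 281 FPKM, 1.32) at higher ones. IAA27 was the only tested member that fell (-0.33), and it did not pass without low R:FR replicate 1 or WL replicate 2. The SAUR family encodes small proteins that promote cell expansion by activating plasma membrane proton pumps. Of 79 SAUR genes, 58 were tested, and 27 rose, 2 fell, 21 were induced and 1 was repressed, with a median of 0.53. SAUR22 was at 1.28, 0.53 and 1.44 FPKM under WL and 24.4, 25.0 and 26.9 FPKM under low R:FR (4.53, limma adjusted p = 1.02e-07), and SAUR19 at 0.32, 0.89 and 0.97 FPKM and 12.2, 11.9 and 14.2 FPKM (4.07, limma adjusted p = 2.13e-06). All of SAUR19 to SAUR24 that were tested were induced, but these neighbouring genes are near-identical in sequence and reads may have been split among them. SAUR63, outside that cluster, rose from 18.4 ± 0.664 to 41.3 ± 1.098 FPKM (1.16). SAUR54 (-1.03) and SAUR14 (-0.60) fell. SAUR54 did not pass with the 6 Col-0 libraries alone in the fit (adjusted p = 0.0683), and in 4 of the 6 fits without 1 library, those without low R:FR replicate 2 or 3 or WL replicate 2 or 3, no SAUR gene was repressed.

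Cell wall enzymes split within their families. XTH enzymes cut and rejoin xyloglucan, and of 33 listed 28 were tested, 19 rose, 6 fell, 10 were induced and 2 repressed (median 0.59). XTH15 was at 13.1, 11.2 and 14.6 FPKM under WL and 71.2, 79.1 and 46.3 FPKM under low R:FR (2.30, limma adjusted p = 3.19e-07), and TCH4 (also XTH22) rose from 12.4 ± 1.48 to 61.8 ± 11.2 FPKM (2.30). XTH4, the most abundant tested member in low R:FR, rose from 513 ± 50.8 to 859 ± 75.2 FPKM (0.75). In the opposite direction, XTH31 was at 59.3, 62.8 and 47.6 FPKM under WL and 10.9, 11.1 and 25.7 FPKM under low R:FR (-1.94, limma adjusted p = 1.07e-05), and XTH20 (-1.21) was repressed too. Expansins loosen walls without cutting polymers. Among 18 tested of 31, 4 rose (22.2%) and 5 fell (27.8%), beside 22.6% and 16.7% of all tested genes. The share that rose was thus close to that of all genes, and so was the median of 0.04. EXPA11 (20.1 to 57 FPKM, 1.496) and EXPA8 (36.7 to 78.7 FPKM, 1.13) were induced, and EXPB3 (-0.88) and EXPA15 (-0.83) had the largest falls.

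The RTFL family, whose small peptides restrain cell proliferation along the axis of leaves, had 15 tested genes of 24. Of these, 6 rose (40.0%, beside 22.6% of all tested genes) and 0 fell, and 1 fell without low R:FR replicate 2. After RTFL18, the strongest were RTFL21, listed at 0.49, 0.09 and 0.3 FPKM under WL and 7.42, 5.88 and 6.46 FPKM under low R:FR (4.23, limma adjusted p = 1.36e-05), and RTFL1, at 0.26, 0.23 and 0.34 FPKM and 2.94, 3.78 and 3.05 FPKM (3.16, limma adjusted p = 7.30e-05). Both were near 0 in WL, so their fold changes depend on the added 0.1. RTFL16 (mean 56.7 ± 4.99 to 123 ± 7.90 FPKM, 1.12) and RTFL17 (28.6 ± 2.75 to 62.3 ± 4.72 FPKM, 1.12) were far more abundant in both lights and were also induced. RTFL8 rose by less (0.59), and the 9 other tested members did not pass.

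Genes of other growth hormones moved as well. For brassinosteroids, CPD, an enzyme of synthesis, rose from 49.4 ± 1.87 to 102 ± 9.21 FPKM (1.05, limma adjusted p = 6.66e-09), and BR6OX2, which makes the final product, from 8.48 ± 1.01 to 15.4 ± 1.91 FPKM (0.86). Of 10 tested synthesis genes 3 rose, beside 22.6% of all tested genes, and DWF4 (-0.07), often regarded as rate-limiting, did not pass. Of 6 inactivation genes, 3 rose, led by BAS1 (AT2G26710), a cytochrome P450 (5.04 to 11.2 FPKM, 1.13). In gibberellin metabolism, both a synthesis gene, GA20OX1 (0.783 to 2.38 FPKM, 1.51), and the inactivation genes GA2OX1 (2.16) and GA2OX6 (1.22) were induced, while GA3OX2, of the last activating step, fell (-1.01). Of the 8 tested genes of ethylene synthesis, 5 rose (62.5%) and 0 fell, with 3 induced and a median of 0.83. ACS8, which makes the precursor ACC, was induced from a low level (0.283 to 4.01 FPKM, 3.45).

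Among cytokinin response genes only falls passed. Of 8 tested type-A response regulators, negative regulators that cytokinin itself induces, 4 fell and 0 rose, with a median of -0.43. ARR4 was at 62.0, 55.1 and 59.4 FPKM under WL and 21.8, 32.1 and 32.3 FPKM under low R:FR (-1.05, limma adjusted p = 1.74e-06), and ARR7 (-1.21) and ARR16 (-1.15) were repressed as well. Without low R:FR replicate 1, the list held 1 repressed gene in place of 3, and with the 6 Col-0 libraries alone in the fit 2 genes fell in place of 4. CKX5, which degrades cytokinin, was induced (1.77 to 8.13 FPKM, 2.17), and CKX4 was repressed (2.31 to 0.797 FPKM, -1.41).

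Of 13 tested jasmonate genes, 6 fell and 2 rose, beside 16.7% and 22.6% of all tested genes, with 3 repressed and a median of -0.29. LOX2 (AT3G45140), the lipoxygenase that starts jasmonate synthesis in wounded leaves, was listed at 32.8, 35.97 and 25.0 FPKM under WL and 5.18, 3.64 and 10.8 FPKM under low R:FR (-2.37, SE 0.36, limma adjusted p = 2.98e-05). Its low R:FR values were all below WL, and that of replicate 3 was the highest of them. The storage protein genes VSP1 (3.22 to 1.18 FPKM, -1.45) and VSP2 (1.67 to 0.687 FPKM, -1.26), common markers of jasmonate response, were repressed too, VSP2 not with the 6 Col-0 libraries alone in the fit (adjusted p = 0.0766). The members that rose were ST2A and MYC2 (0.46), the main transcription factor of the pathway. Among 11 tested genes of salicylic acid and defense, 3 fell (27.3%) and 1 rose (9.09%), beside 16.7% and 22.6% of all tested genes. PCC1 alone was repressed. No gene of that list rose under 8 of the alternatives, among them median ratio scaling and the fits without low R:FR replicate 2 or 3 or WL replicate 1 or 3. PCC1 was at 4.39, 3.62 and 6.92 FPKM under WL and 0.11, 0 and 0.34 FPKM under low R:FR (limma adjusted p = 4.97e-05). Of 8 tested abscisic acid genes, 4 rose and 0 fell, led by the late embryogenesis abundant gene RAB18 (8.04 to 19.8 FPKM, 1.29).

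Glucosinolates are the sulfur-rich defense compounds of crucifers. Among the 36 lists examined, which were chosen with earlier results of these data known, their synthesis had the lowest median. Of 18 genes 17 were tested, and 15 fell, 0 rose and 12 were repressed, with a median of -1.33 beside 0.06 over all tested genes. CYP79F1 (AT1G16410), which commits chain-elongated methionine to aliphatic glucosinolates, was at 38.5, 39.6 and 28.7 FPKM under WL and 2.13, 1.66 and 3.72 FPKM under low R:FR (-3.84, SE 0.34, limma adjusted p = 2.95e-08). BCAT4 (AT3G19710), which starts the elongation of methionine, was at 60.4, 66.8 and 48.9 FPKM and fell to 6.27, 6.09 and 14.6 FPKM (-2.81, SE 0.34, adjusted p = 2.01e-06). MAM1 (AT5G23010), the condensing enzyme of that elongation, was at 86.3, 105 and 76.2 FPKM and fell to 14.8, 13.3 and 24.3 FPKM (-2.38, SE 0.25, adjusted p = 3.29e-07). In each of these genes replicate 3 of low R:FR was the highest of its group and still below every WL library. MYB29, a transcription factor of the aliphatic branch, fell from 7.12 ± 1.68 to 1.05 ± 0.728 FPKM (-2.82), and its close relative MYB28 by less (44.6 to 32.8 FPKM, -0.44). Enzyme genes of the indolic branch were repressed as well, with CYP79B2 at 44.0 ± 1.499 FPKM under WL and 17.9 ± 5.12 FPKM under low R:FR (-1.33) and CYP79B3 at 54.2 ± 3.08 and 22.5 ± 4.15 FPKM (-1.28). Its regulators MYB34 (-0.21) and MYB51 (0.10) did not pass, but MYB34 fell without low R:FR replicate 3 (-0.39, limma adjusted p = 0.0048).

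Further enzymes of the aliphatic pathway stood among the genes with the largest fall without being on that list. IPMI1 (AT3G58990), an isopropylmalate isomerase gene, was at 54.4, 49.7 and 38.1 FPKM under WL and 5.02, 5.95 and 12.1 FPKM under low R:FR (-2.70, SE 0.30, limma adjusted p = 6.18e-07). FMO GS-OX3 (AT1G62560), which oxidises the side chain of aliphatic glucosinolates, went from 11.8, 13.97 and 9.72 FPKM to 1.28, 1.40 and 3.02 FPKM (-2.66, SE 0.26, adjusted p = 1.25e-07). The summed FPKM of the 17 listed genes was 788, 823 and 734 in WL and 257, 274 and 393 in low R:FR. Replicate 3 was the least changed of the low R:FR libraries in all 15 genes that fell, and over the 6 fits that each left out a library 11 to 13 genes of the list were repressed. CYP79F1 and CYP79F2 are close copies, as are MAM1 and MAM3, and reads may have been split between them.

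Sulfur-deficiency genes fell alongside. Of 12 tested genes of 14, 10 fell, 0 rose and 5 were repressed, with a median of -0.87. APR1, an enzyme that reduces sulfate, was listed at 51.3, 53.4 and 47.0 FPKM under WL and 14.01, 11.9 and 19.6 FPKM under low R:FR (-1.76, limma adjusted p = 4.36e-08). APR3 fell from 77.0 ± 2.57 to 36.6 ± 7.99 FPKM (-1.09) and APR2 from 114 ± 3.61 to 68.1 ± 7.08 FPKM (-0.75). The sulfur-deficiency markers LSU1 (4.31 to 1.24 FPKM, -1.74) and LSU2 (14.9 to 5.34 FPKM, -1.51) were repressed, as was LSU3 (-1.08). The high-affinity sulfate transporter gene SULTR1;2 fell by less than 2-fold (-0.60). Without low R:FR replicate 2, 2 of the list's genes were repressed in place of 5. LSU1 did not pass without low R:FR replicate 2 or WL replicate 2, and SULTR1;2 without low R:FR replicate 1, WL replicate 2 or WL replicate 3.

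Iron uptake genes of the root fell too. Of 22 tested genes of the iron deficiency response, 15 fell, 1 rose and 10 were repressed, and the median was -0.86. IRT1, the iron transporter of the root epidermis, was at 79.2, 84.3 and 92.5 FPKM under WL and 13.1, 23.1 and 44.6 FPKM under low R:FR (-1.83, SE 0.36, limma adjusted p = 4.48e-04). FRO2, the ferric reductase that supplies it, was at 22.7, 20.9 and 23.4 FPKM in WL and fell to 3.34, 3.79 and 8.67 FPKM (-2.19, SE 0.34, adjusted p = 4.10e-05). CYP82C4 (AT4G31940), of the synthesis of iron-mobilising coumarins, was at 28.4, 21.6 and 27.3 FPKM and fell to 2.95, 3.8 and 9.73 FPKM (-2.39, SE 0.39, adjusted p = 6.23e-05). Although all low R:FR values of these genes lay below WL, they were spread widely. NAS1 (91.6 to 36.6 FPKM, -1.40) and NAS4 (33.7 to 11.05 FPKM, -1.62), which make the metal chelator nicotianamine, and the transcription factor genes BHLH100 (-1.83), BHLH38 (-1.22) and BHLH101 (-1.12) were repressed. FIT, the master regulator of iron uptake, fell from 12.2 ± 1.42 to 7.41 ± 3.98 FPKM (-0.85, adjusted p = 0.0145) with overlapping libraries, and the root proton pump gene AHA2 (-0.10) and IRT2 (0.58) did not pass. FRO3, a mitochondrial reductase gene, rose (0.32), a call lost without low R:FR replicate 2 or WL replicate 1. FIT and BHLH38 did not pass without low R:FR replicate 1. IRT2 rose without low R:FR replicate 1 (0.79, limma adjusted p = 0.0187) or WL replicate 3 (0.71, limma adjusted p = 0.0423). Among ferritins, which store iron, FER1 rose from 98.5 ± 16.5 to 165 ± 26.9 FPKM (0.75, not passing without low R:FR replicate 2 or WL replicate 3) and FER3 fell (-0.37).

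The iron genes varied widely among the low R:FR libraries, and their fall was not matched by root markers. The summed FPKM of the 22 genes was 799.7, 828 and 854 in WL and 439, 578 and 672 in low R:FR, and the median log2 difference from WL was -1.62, -0.91 and -0.51 in replicates 1, 2 and 3. Without low R:FR replicate 1, 11 of the genes fell and 9 were repressed, and without replicate 3 the counts were 17 and 13. Of 12 root markers, all tested, 4 rose (33.3%, beside 22.6% of all tested genes) and 0 fell. Of those that rose, 2 were induced, and the largest log2 fold change was 1.49. The median of the list was 0.37, and its summed FPKM was 73.8 to 95.8 in WL and 78.8, 129.6 and 117 in low R:FR. Replicate 1 of low R:FR, the lowest in iron genes, was thus also the lowest of its group in root markers. Casparian strip genes such as CASP1 (31.5 ± 3.75 to 35.5 ± 7.60 FPKM, 0.16, adjusted p = 0.511) were present throughout and did not pass. The part of root content in the result was not tested.

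**Figure D3:**
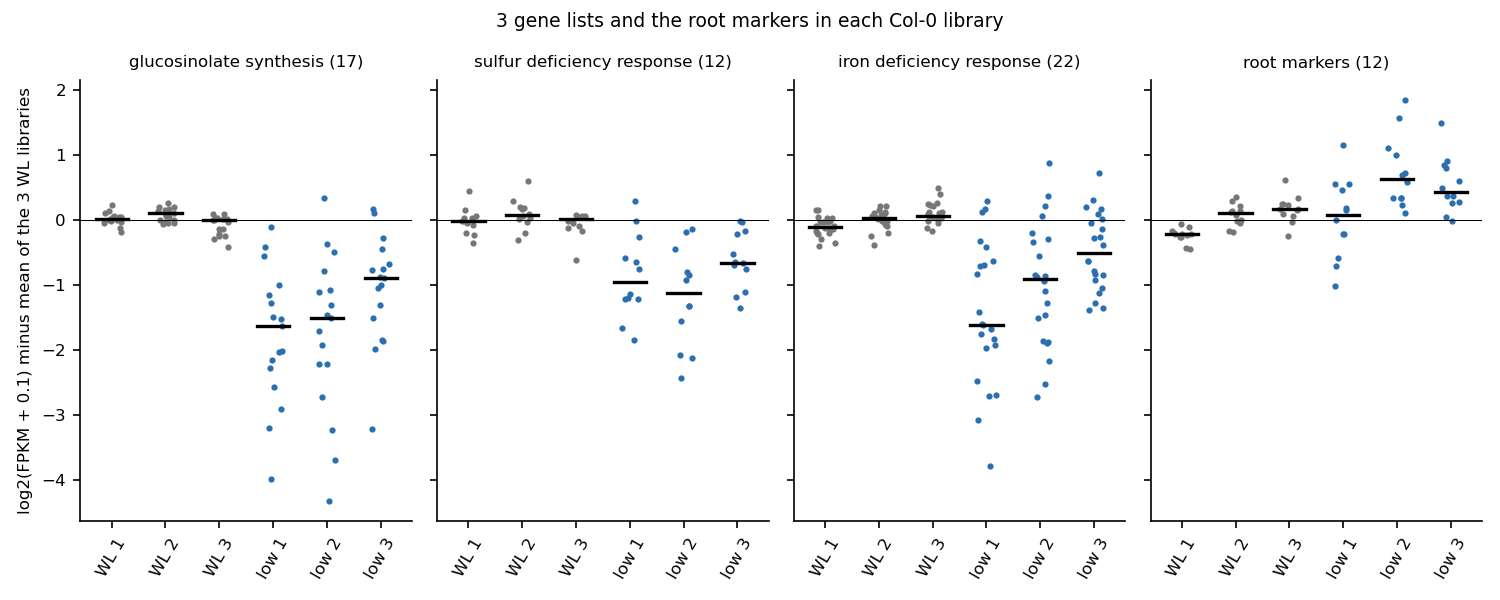
Difference of each gene's log2(FPKM + 0.1) from the mean of the 3 WL libraries (y axis) in each of the 6 Col-0 libraries (x axis, low standing for low R:FR) for the genes of glucosinolate synthesis (17), sulfur deficiency (12) and iron deficiency (22) and for the root markers (12), with a point per gene and a bar at the median of the list. The medians of glucosinolate and iron genes are nearest to 0 in low R:FR replicate 3, at -0.90 and -0.51, and the root markers are not lowered.

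The other genes with the largest fall came from various groups. AT5G33370, with no name in the tables used, was listed at 15.3, 18.8 and 16.7 FPKM under WL and 2.11, 2.17 and 3.45 FPKM under low R:FR (-2.70, SE 0.26, limma adjusted p = 9.42e-08). AT1G06100 went from 8.09, 10.9 and 8.51 FPKM to 1.04, 0.79 and 2.18 FPKM (-2.79, SE 0.45, adjusted p = 5.15e-05), and AT1G13609 from 17.9, 31.3 and 22.6 FPKM to 3.15, 1.39 and 7.73 FPKM (-2.80, SE 0.65, adjusted p = 0.0019). In these genes too the replicate nearest to WL was replicate 3. A pair of antisense RNAs completed the set, and the counting is not stated to use strand, so reads of the opposite gene may be included. AT2G08330 was at 35.8, 20.4 and 16.9 FPKM in WL and was listed at 0 in all low R:FR libraries (adjusted p = 5.10e-04), so no fold is given. AT3G08170 was at 32.7, 21.2 and 17.9 FPKM under WL and 5.51, 0 and 9.06 FPKM under low R:FR (adjusted p = 0.0305). It did not pass without low R:FR replicate 2 (log2 fold change -1.70, adjusted p = 0.265) or with the 6 Col-0 libraries alone in the fit (adjusted p = 0.094). Nor did it pass without any of the WL replicates (adjusted p = 0.092, 0.058 and 0.051 for replicates 1, 2 and 3). The light response of these antisense RNAs passed in no mutant. That of AT3G08170 was 0.63, 0.48 and -2.64 in dvl1-1D, bsk36 and pif47. AT2G08330 was listed at 0 in all WL libraries of bsk36 and pif47. In dvl1-1D its WL values were 8.64, 6.35 and 2.48 FPKM, and low R:FR replicate 2 held 25.3 FPKM beside 0 in the others. Why these RNAs varied between genotypes was not tested.

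Genes of carbon starvation and branched-chain amino acid breakdown rose almost throughout. Of 14 genes, 13 rose, 0 fell and 5 were induced, and the median was 0.68. After SEN1, the asparagine synthetase gene ASN1 was at 3.95, 4.24 and 4.50 FPKM under WL and 15.3, 21.7 and 8.49 FPKM under low R:FR (1.72, limma adjusted p = 8.78e-04). Genes of leucine breakdown were induced, among them MCCA, from 9.43 ± 1.58 to 25.5 ± 6.89 FPKM (1.40), and IVD, from 15.4 ± 1.90 to 35.2 ± 6.41 FPKM (1.18). BCAT2 was induced from a low level (0.953 to 3.72 FPKM, 1.74), and BGLU30, the member that did not pass, had a log2 fold change of -0.35. Low R:FR replicate 3 was the least changed in 12 of the 13 genes that rose.

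Most clock genes rose. Of 19 genes, 15 rose, 2 fell and 7 were induced, and the median was 0.77. GI, an evening gene that also acts in flowering, was at 7.46, 7.38 and 6.90 FPKM under WL and 29.4, 33.4 and 30.5 FPKM under low R:FR (2.08, limma adjusted p = 2.14e-11). The pseudo-response regulator gene PRR7 was at 9.46, 13.0 and 11.2 FPKM and rose to 44.0, 48.0 and 37.3 FPKM (1.94, limma adjusted p = 1.51e-09), and PRR9 (1.72), LNK1 (1.498) and RVE7 (1.61) were induced. CCA1, a dawn-phased MYB gene, stood at 44.0 ± 7.67 FPKM under WL and 49.4 ± 4.72 FPKM under low R:FR and did not pass, and neither did LHY (-0.17), while RVE2 fell from 128 ± 7.53 to 85.8 ± 2.16 FPKM (-0.58) and RVE1 fell by less (-0.31, not passing with the 6 Col-0 libraries alone, adjusted p = 0.0598). Among flowering genes, 5 of 8 tested rose and 0 fell. FT, the mobile flowering signal, was at 3.21, 3.97 and 4.15 FPKM under WL and 19.4, 13.0 and 18.8 FPKM under low R:FR (2.13, limma adjusted p = 4.20e-06), and CDF5, a repressor of the pathway, rose from 2.58 ± 0.374 to 13.6 ± 1.56 FPKM (2.36). CO, which activates FT, did not pass (-0.22).

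The 5 largest gains of FPKM were all of photosynthesis genes, and 4 of them encode light-harvesting proteins. LHB1B2, a chlorophyll a/b-binding protein of photosystem II, had the largest gain of FPKM, from 5370.2, 5779 and 5523 FPKM in WL to 12044, 12508 and 10503 FPKM in low R:FR (1.07, SE 0.09, limma adjusted p = 2.68e-08). LHCA4 rose from 2093 ± 163 to 3569 ± 208 FPKM (0.77) and LHCA1 from 2399.8 ± 162 to 3772 ± 322 FPKM (0.65), both antenna proteins of photosystem I, and PSBR, of photosystem II, from 5299 ± 331 to 6610.5 ± 77.8 FPKM (0.32). CAB1 gained much FPKM at a small fold change (16192 to 18808 FPKM, 0.21, adjusted p = 0.0337), a call that was lost under 8 of the alternatives tried. These were median ratio scaling (adjusted p = 0.209), no filter (adjusted p = 0.286), the 6 Col-0 libraries alone (adjusted p = 0.112), and each fit without 1 library other than that without low R:FR replicate 3 (adjusted p up to 0.14). PSBR did not pass without WL replicate 1 (adjusted p = 0.0563). Over the 21 LHC genes, 15 rose, 1 fell and 1 was induced, with a median of 0.34, and their summed FPKM was 49612, 51994 and 49062 in WL and 71667, 69006 and 64088 in low R:FR. The LHCB1 genes CAB1, CAB2, CAB3, LHB1B1 and LHB1B2 are close copies, so the share of each is uncertain. Without low R:FR replicate 1, 10 LHC genes rose in place of 15.

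The largest losses of FPKM were those of small subunits of Rubisco. RBCS1A was at 19182, 16689 and 16438 FPKM under WL and 14303, 11374 and 12763 FPKM under low R:FR (-0.45, SE 0.08, limma adjusted p = 2.62e-04), and RBCS1B at 7149, 6593 and 6543 FPKM and 4207, 3709.7 and 4079 FPKM (-0.76, SE 0.07, adjusted p = 9.75e-08). No low R:FR library of either gene reached a WL library. RBCS2B fell as well (-0.46), while RBCS3B did not pass (-0.13), and the B genes are near-identical. The ferredoxin gene FED A fell from 2857 ± 220.3 to 2093 ± 174 FPKM (-0.45), and AT1G72610 from 1814 ± 248 to 996 ± 52.5 FPKM (-0.86). Of 11 tested genes of chlorophyll synthesis, 8 fell and 0 rose, none by 2-fold, with a median of -0.28. CHLI1, a subunit of magnesium chelatase, fell from 434 ± 21.1 to 272 ± 24.2 FPKM (-0.67), and DVR, a vinyl reductase, from 99.8 ± 4.72 to 59.9 ± 7.24 FPKM (-0.74). In flavonoid synthesis, the entry enzyme gene TT4 was induced (143 to 295 FPKM, 1.04), and the later anthocyanin genes DFR (3.13 to 0.793 FPKM, -1.98) and LDOX (3.42 to 0.923 FPKM, -1.95) were repressed. TT4 was just under 2-fold under median ratio scaling (0.99) and without low R:FR replicate 3 (0.95) or WL replicate 3 (0.995). Among nitrate and phosphate genes, the nitrate reductase genes NIA1 (0.89) and NIA2 (0.42) rose, and the phosphate transporter gene PHT1;1 fell (-0.85).

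Other marker lists changed by small amounts. Of 9 markers of green shoot tissue, 4 fell (44.4%) and 1 rose (11.1%), beside 16.7% and 22.6% of all tested genes. The fallen ones were GAPA (-0.25) and the Rubisco genes above. GLK1, a regulator of chloroplast development, did not pass (-0.02), and GLK2 rose (0.45). Of 8 markers of dividing cells, 5 fell (62.5%) and 0 rose, each by less than 2-fold, with a median of -0.33. Their summed FPKM was 151 to 168 in WL and 119 to 144 in low R:FR. Among them, the mitotic cyclin gene CYCB1;2 fell from 27.7 ± 1.00 to 21.2 ± 3.12 FPKM (-0.40). With the 6 Col-0 libraries alone in the fit, 2 of these markers fell in place of 5, and without low R:FR replicate 2, 3 did. Of 7 markers of the stomatal lineage 2 fell (28.6%, beside 16.7% of all tested genes) and 0 rose. Without low R:FR replicate 2 or WL replicate 1, 1 of these markers fell. Of 8 tested genes of rapid touch and stress response, which handling can induce, 2 rose, beside 22.6% of all tested genes. These were TCH4 and WRKY33 (0.53, not passing without low R:FR replicate 2 or WL replicate 1), and TCH2 (0.08), TCH3 (0.40) and ZAT12 (-0.34) did not pass. Without low R:FR replicate 3, 4 genes of that list rose, among them TCH3 (0.60, adjusted p = 0.0050), which also passed with the filter at 5 FPKM (adjusted p = 0.0462) and when rescaled to an equal sum (adjusted p = 0.0437).

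**Figure D4:**
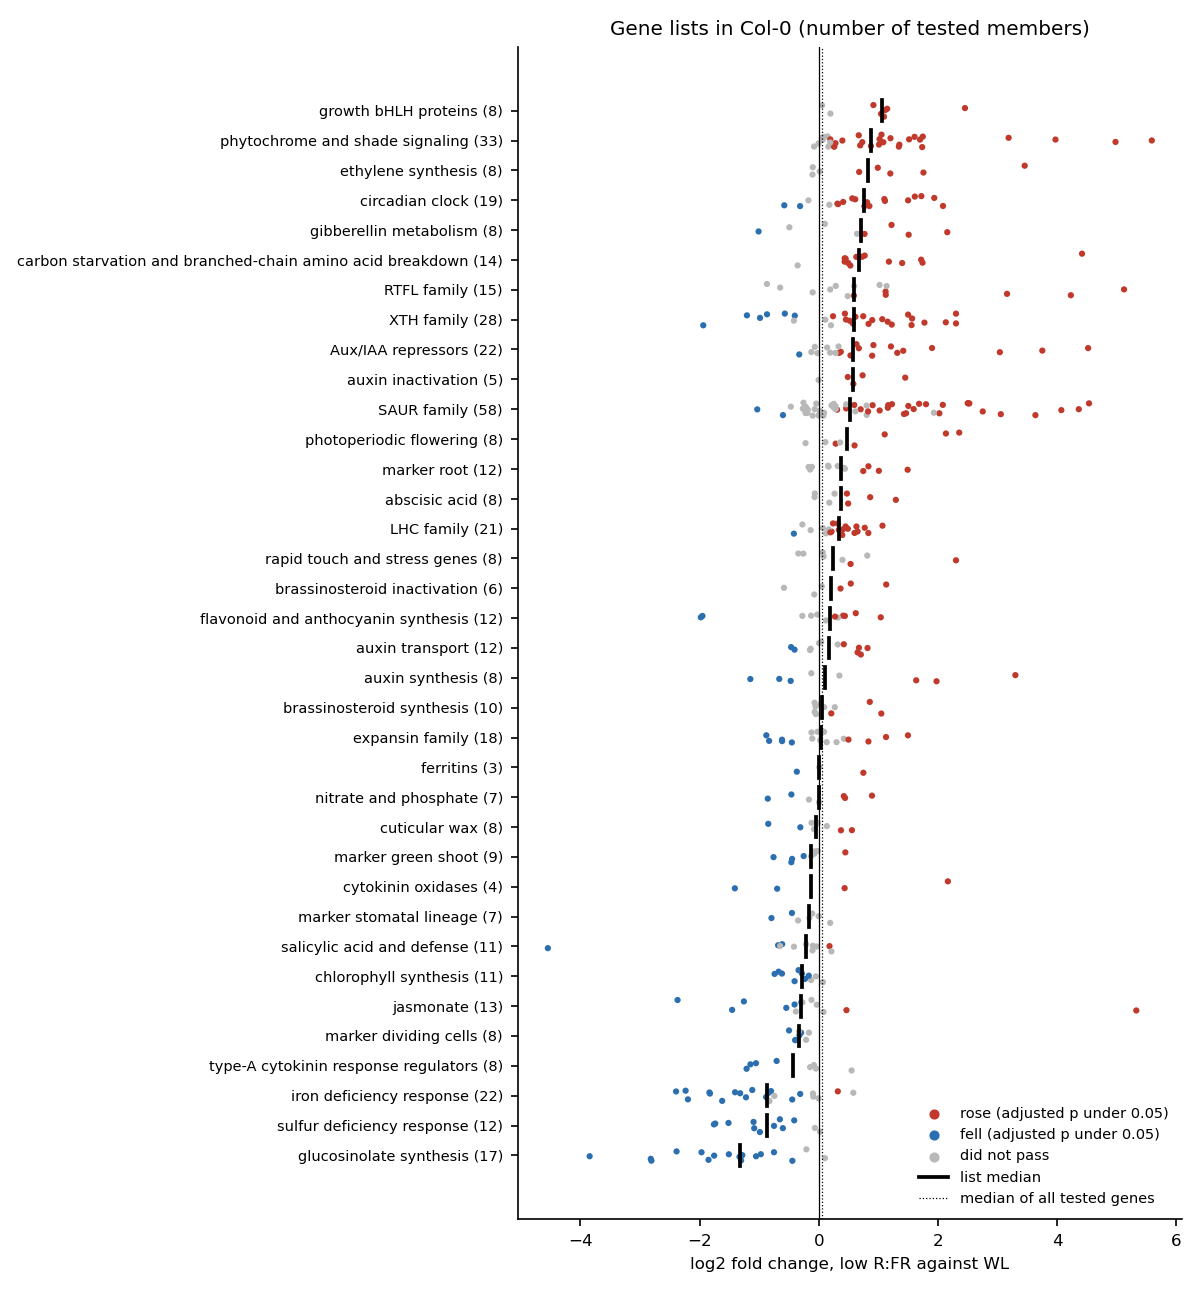
Log2 fold change (x axis, low R:FR against WL in Col-0) of each tested member of the 32 gene lists and 4 marker lists (y axis, number of tested members in brackets), in red where it rose, blue where it fell and grey where it did not pass, with a black bar at the median of the list and a dotted line at the median of all tested genes, 0.06. Medians run from 1.07 for growth bHLH proteins to -1.33 for glucosinolate synthesis.

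The 24 genes with the largest rise or fall were compared with the mutants by the difference of the low R:FR responses within the same fit. The genes were chosen for their size in Col-0, whose libraries also enter every difference, so a smaller response elsewhere is partly built into the choice. The difference passed (limma adjusted p under 0.05 over all genes) for 4 genes with dvl1-1D (2.61% of all tested genes), 4 with bsk36 (3.5%) and 10 with pif47 (2.61%), and for 14 genes with any of them. PIL1 rose in all genotypes, with a log2 fold change of 5.59 in Col-0 and of 5.92, 5.30 and 5.81 in dvl1-1D, bsk36 and pif47, and no difference passed. ST2A was different, at 5.33, 4.70, 4.63 and 0.64 in the same order, and only the difference of pif47 passed (-4.69, SE 0.24, adjusted p = 2.94e-10). The values of AT5G02540 were in that order 3.94, 3.38, 3.72 and 0.66, and IAA29 kept part of its response in pif47 (2.08). Among the falls, CYP79F1 gave -3.84, -2.99, -3.40 and -1.31 in that order. RTFL18 responded by 0.71 in dvl1-1D, the line that overexpresses it, where it stood at 618, 517 and 528 FPKM in WL and 975, 965 and 788 FPKM in low R:FR. For SEN1 the response was 4.42, 1.91, 1.66 and 2.43 in the order used above, and its difference in pif47 (-1.99, adjusted p = 0.0647) did not pass. In WL, SEN1 was at 52.4, 34.1 and 34.5 FPKM in dvl1-1D and 69.3, 59.1 and 31.2 FPKM in bsk36. Its WL values were 8.42, 6.56 and 16.55 FPKM in pif47 and 10.2, 11.85 and 13.1 FPKM in Col-0.

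**Figure D5:**
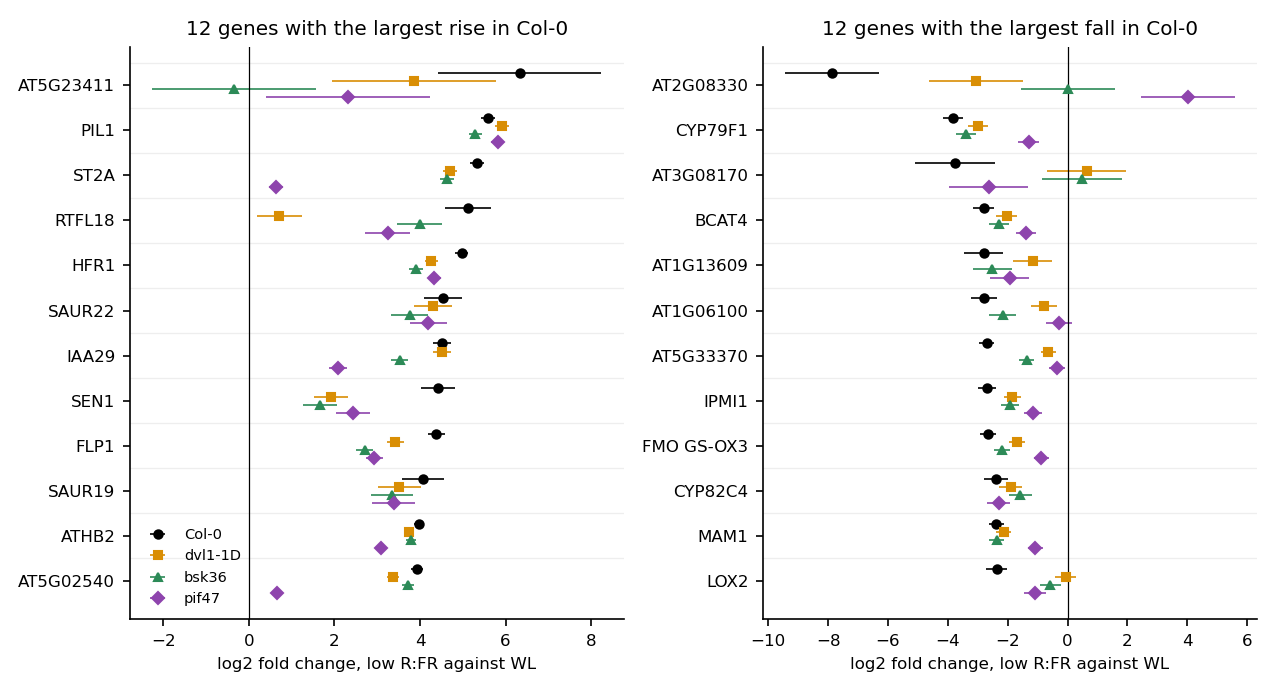
Log2 fold change (x axis, low R:FR against WL, bars are ± SE from the limma fit, 3 libraries per group) of the 12 genes with the largest rise (left) and the 12 with the largest fall (right) in Col-0, shown for Col-0 (circles), dvl1-1D (squares), bsk36 (triangles) and pif47 (diamonds). ST2A and AT5G02540 drop to 0.64 and 0.66 in pif47, whereas PIL1 lies between 5.30 and 5.92 in the 4 genotypes.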

How the data were processed

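Whole seedlings of Col-0 and of the 3 mutants, 3 libraries per genotype and light, were profiled by RNA-seq of poly(A) RNA at a sequencing company. The authors deposited FPKM for 32833 genes, with 8 columns of group means, which were not used. Per the submitters' processing notes the tools were fastp, cutadapt, HISAT2 and DESeq2, with the TAIR10 build. The counter and annotation are not given in the sources used here. All 24 libraries were matched to samples by column name. For bsk36 and pif47 the names equal the sample titles, and for the others the genotype is shortened, with Col for Col-0 and dvl for dvl1-1D. Names and biotypes came from RefSeq (TAIR10.1 assembly), in which 32548 loci were found, and no coordinates or sequences are given.

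Because FPKM are not counts, limma 3.58.1 in R 4.3.3 (functions lmFit, contrasts.fit, and eBayes with trend) was fitted to log2(FPKM + 0.1) of the 19245 genes whose FPKM averaged 1 or more over the 6 Col-0 libraries. All 24 libraries entered 1 model of 8 group means, so the spread is shared by the groups. P-values were Benjamini-Hochberg adjusted over all tested genes. The fit was tested on simulated data with independent normal errors of the observed spread. That test could not show departures from such errors. Tables and figures were made with Python 3.11.15, pandas 2.3.3 and matplotlib 3.10.9. The relative depth came from the spacing of low values of 178 genes.

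Named genes were the 12 largest rises and 12 largest falls among induced or repressed genes with a mean of at least 5 FPKM and no overlap between conditions (257 induced and 129 repressed genes met this), the 5 largest gains and 5 largest losses of FPKM among genes past the adjusted p, and in each list the members with the largest changes, those against the direction of the list and a few more chosen after their values were seen, mostly close relatives of named members. The genes tested, the 32 gene lists and the 4 marker lists were chosen with earlier results of these data known. The alternatives were pseudocounts of 0.5 and 1, no filter and a filter at 5 FPKM, rescaling by median ratios or to an equal sum per library, the 6 Col-0 libraries alone, no trend, a replicate block, unadjusted P of at most 0.01, and leaving out each Col-0 library in turn.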

Additional observations from a re-analysis of the deposited data

Results flagged for a closer look

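The responses of 14 of the 24 genes with the largest rise or fall in Col-0 differed between Col-0 and at least 1 mutant by the interaction term of the limma fit, and each such difference is given as the mutant response minus the Col-0 response on the log2 scale. The genes were chosen for large responses in Col-0, which is part of each difference, and no cause was tested.

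In pif47 the rise was smaller for ST2A (-4.69, SE 0.24, limma adjusted p = 2.94e-10), AT5G02540 (-3.28, SE 0.20, limma adjusted p = 3.10e-09), IAA29 (-2.44, SE 0.29, limma adjusted p = 4.60e-05), FLP1 (-1.45, SE 0.29, limma adjusted p = 0.0065) and ATHB2 (-0.89, SE 0.17, limma adjusted p = 0.0046). The fall was smaller in pif47 for CYP79F1 (2.54, SE 0.48, limma adjusted p = 0.0046), AT1G06100 (2.51, SE 0.63, limma adjusted p = 0.0345), AT5G33370 (2.35, SE 0.37, limma adjusted p = 7.36e-04) and FMO GS-OX3 (1.79, SE 0.37, limma adjusted p = 0.0089). AT2G08330 also passed (11.86, SE 2.22, limma adjusted p = 0.0045), a value that rests on libraries listed at 0 and on the added 0.1. It was listed at 0 in all WL libraries of pif47, so a fall could not be seen there.

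In dvl1-1D the rise was smaller for RTFL18 (-4.41, SE 0.75, limma adjusted p = 0.0049), the gene this line overexpresses, and for SEN1 (-2.50, SE 0.56, limma adjusted p = 0.0241). The fall was smaller for AT5G33370 (2.06, SE 0.37, limma adjusted p = 0.0063) and LOX2 (2.30, SE 0.51, limma adjusted p = 0.0227). In bsk36 the rise was smaller for SEN1 (-2.76, SE 0.56, limma adjusted p = 0.0114), FLP1 (-1.67, SE 0.29, limma adjusted p = 0.0043) and HFR1 (-1.07, SE 0.22, limma adjusted p = 0.0114), and the fall for AT5G33370 (1.33, SE 0.37, limma adjusted p = 0.0476). HFR1 started higher in bsk36, at 10.9, 8.9 and 6.59 FPKM in WL beside 3.06, 4.68 and 3.38 in Col-0. Its low R:FR values were 119, 128 and 146 FPKM in bsk36 and 129, 111 and 115 in Col-0. FLP1 was at 11.8, 7.09 and 8.74 FPKM in WL in bsk36, beside 3.47, 3.8 and 2.77 in Col-0. In low R:FR it was at 49.7, 61.1 and 69.0 FPKM in bsk36 and 77.5, 69.9 and 66.2 in Col-0.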

How the results depend on the processing

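The counts of 421 induced and 249 repressed genes depended mainly on how low values were treated. A filter at a mean of 5 FPKM gave 260 and 129, by testing fewer genes, and no filter gave 540 and 361. A pseudocount of 1 gave 291 induced and 161 repressed genes. With the 6 Col-0 libraries alone, 2663 genes rose in place of 4345. That fit takes the spread from fewer libraries and from Col-0 only, and the part of each in the lower count was not tested. Median ratio scaling moved the median of all tested genes by -0.05 and gave 3645 rises and 3816 falls. Leaving out each Col-0 library in turn gave 341 to 498 induced, 213 to 334 repressed, 3011 to 4395 risen and 2651 to 3361 fallen genes. Differences from Col-0 among the 24 genes passed for 2 to 6 genes in dvl1-1D, 3 to 5 in bsk36 and 9 to 15 in pif47 in those fits, and for 7 in bsk36 with the filter at 5 FPKM. For dvl1-1D, 2 genes passed without low R:FR replicate 1, low R:FR replicate 2 or WL replicate 1.

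Over the 172 genes that are named with values, 2478 of 2546 results under the alternatives kept direction and side of the threshold. In 20 genes a call was lost at least once, most often with the Col-0 libraries alone (15 genes, namely ARR16, AT3G08170, CAB1, COP1, FIT, FRO3, IAA27, LAX3, PRE1, RVE1, SAUR54, SULTR1;2, VSP2, WRKY33 and YUC6). Of 106 named genes that were induced or repressed, 22 were under 2-fold in at least 1 alternative. Without 1 library this held for 18 genes (APR3, ARR4, ARR7, ARR16, BBX24, BHLH38, BHLH101, CPD, EXPA8, GA3OX2, KDR, LSU3, PIF3, PRE1, SAUR54, TT4, VSP2 and XTH20), and with a larger pseudocount for 13, among them CKX4, GA20OX1, VSP1 and YUC4. Signs changed in 9 cases, all of genes that did not pass. Over the fits without 1 library, log2 fold changes ran from -0.188 to 0.0660 for AHA2, -0.164 to 0.0166 for DWF4, -0.0605 to 0.0279 for GLK1, -0.0333 to 0.130 for HBI1, -0.00714 to 0.210 for MYB51, -0.158 to 0.0227 for PHYD and -0.0419 to 0.182 for PIF7, and GLK1 was at 0.00768 when rescaled to an equal sum. The medians of auxin synthesis (-0.12 with the filter at 5 FPKM) and of cytokinin oxidases (0.26 with no filter) changed sign. Equal replicate numbers did not pair the samples (correlations of deviations of 0.07, 0.05 and -0.002 for numbers 1, 2 and 3), and a replicate block gave 419 induced and 249 repressed genes. Counting error is unknown without read numbers, and genes near 0 FPKM have fold changes set by the pseudocount. Beyond what is said here the cause of these changes was not tested.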
